A study of Mus musculus with 10 samples.

Results

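The genes studied were 32 genes of cholesterol metabolism, taken by name from the 46983 genes counted in cardiac CD31+ cells of mice on a control or a ketogenic diet. They comprised 7 genes of the mevalonate pathway, 12 genes that make squalene and convert it to cholesterol, 4 genes of the SREBP2 machinery, 5 genes of cholesterol uptake, transport and storage, and 4 genes of liver X receptor (LXR) signaling and efflux. They were selected on the log2 fold changes between the diets in these same mice, among other knowledge of the pathway, so that their differences between the diets describe the list and are not independent evidence for it. RNA was sequenced from 5 mice per diet, each giving 1 library. All mice were male wild-type C57BL/6J animals, aged 8 weeks when they were assigned to a diet, and they stayed on it for 14 days. The control diet D12359 supplied 11.6% of its energy as fat and the very low-carbohydrate ketogenic diet D17011501 supplied 89.5%, and both were offered together with standard chow at the start. The labels name no transgene and no other treatment. The cells were pulled from digested hearts with magnetic beads carrying CD31 antibodies, and other cells that carry CD31 or stick to the beads can come along.

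Cells build cholesterol from acetyl-CoA through mevalonate and squalene. When the endoplasmic reticulum membrane is low in sterol, SCAP escorts the transcription factor SREBP2 to the Golgi, where proteases release its active part, which switches on the genes of synthesis and uptake. When sterol is plentiful, INSIG proteins hold SCAP back, and oxysterols activate LXR, which switches on the transporters that export cholesterol. Endothelial cells face the lipoproteins of the blood and can both take up and make cholesterol.

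SREBP2 binds a sterol regulatory element and acts together with NF-Y, which binds the CCAAT box, and with SP1, which binds the GC box. Promoters in RefSeq's annotation of the GRCm38.p6 genome were found for 26 of the 32 genes. Fdps, Fdft1, Sqle, Npc1, Stard4 and Abcg1 had none and were not searched. The 250 bases before the start of each were searched on both strands for CCAAT, for the element TCACNCCAC and for the GC box GGGCGG. Of the 16 synthesis genes with a promoter, 15 held CCAAT, or 93.8%, against 37.5% of all 27025 genes with a promoter and 39.9% of the 10955 that were also tested here. All 10 searched genes between squalene and cholesterol held it, as did 5 of 6 mevalonate genes, with Acat2 the exception. It was found in 3 of 4 genes of the SREBP2 group, in 3 of 3 of uptake and storage, and in 0 of 3 of the LXR and efflux group, Nr1h2, Nr1h3 and Abca1. The GC box was present in 22 of 26 members, or 84.6%, beside 61.6% of the tested genes. The letters TCACNCCAC occurred in Hmgcs1 alone among the 26, and in 1.19% of the tested genes. These are matches of letters in a short window, not measured binding sites.

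To show how these letters lie, 6 promoters are printed 5′ to 3′ on the strand of the gene. Hmgcs1, Mvd, Nsdhl and Sc5d stand for the synthesis genes, Insig1 for the SREBP2 group and Abca1 for the efflux genes without the box. Capitals mark CCAAT or its reverse complement ATTGG and, in Hmgcs1, the match to TCACNCCAC, and no capitals overlap. The stretch of Insig1 stops after 201 bases, where its gene begins in the GENCODE annotation.
Hmgcs1, chr13:119690101-119690350, plus strand: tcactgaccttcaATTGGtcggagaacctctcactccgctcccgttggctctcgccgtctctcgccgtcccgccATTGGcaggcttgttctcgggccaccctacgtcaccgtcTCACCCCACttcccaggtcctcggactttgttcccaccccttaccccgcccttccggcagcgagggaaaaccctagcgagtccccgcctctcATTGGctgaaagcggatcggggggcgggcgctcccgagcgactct
Mvd, chr8:122443423-122443672, minus strand: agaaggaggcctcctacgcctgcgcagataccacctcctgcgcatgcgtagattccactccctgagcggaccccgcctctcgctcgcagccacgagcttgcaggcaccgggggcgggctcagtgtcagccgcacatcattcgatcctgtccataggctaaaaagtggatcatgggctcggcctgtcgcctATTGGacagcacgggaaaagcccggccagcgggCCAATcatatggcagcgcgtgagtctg
Nsdhl, chrX:72918271-72918520, plus strand: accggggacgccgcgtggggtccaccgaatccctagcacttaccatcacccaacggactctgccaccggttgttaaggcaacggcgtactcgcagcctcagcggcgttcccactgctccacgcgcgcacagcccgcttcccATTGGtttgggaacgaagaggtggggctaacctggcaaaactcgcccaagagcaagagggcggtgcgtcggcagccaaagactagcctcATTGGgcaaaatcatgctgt
Sc5d, chr9:42264301-42264550, minus strand: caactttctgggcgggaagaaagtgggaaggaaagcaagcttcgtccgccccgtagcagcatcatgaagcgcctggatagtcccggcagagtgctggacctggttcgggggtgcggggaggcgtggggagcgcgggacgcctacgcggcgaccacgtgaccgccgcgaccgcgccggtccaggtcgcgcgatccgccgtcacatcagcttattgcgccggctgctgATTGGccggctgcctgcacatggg
Insig1, chr5:28071162-28071362, plus strand: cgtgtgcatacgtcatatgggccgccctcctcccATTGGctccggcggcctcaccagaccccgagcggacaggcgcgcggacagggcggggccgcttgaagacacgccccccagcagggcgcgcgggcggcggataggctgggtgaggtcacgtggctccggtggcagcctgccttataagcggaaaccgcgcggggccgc
Abca1, chr4:53159896-53160145, minus strand: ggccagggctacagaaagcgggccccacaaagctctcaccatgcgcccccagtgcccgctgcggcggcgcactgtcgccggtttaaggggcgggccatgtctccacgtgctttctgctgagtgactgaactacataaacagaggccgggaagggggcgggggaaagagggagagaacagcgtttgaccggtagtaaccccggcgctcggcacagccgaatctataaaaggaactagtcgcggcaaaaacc

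Hmgcs1 carried 3 CCAAT boxes, beginning 237, 176 and 45 bases before the start, and the sterol regulatory element letters beginning 137 bases before it. Mvd and Nsdhl each had a pair of CCAAT boxes, at 60 and 27 bases and at 109 and 20 bases, and Sc5d had 1 at 24 bases. In Insig1 the only box lay at 216 bases. All these distances count from the RefSeq start, which lies beyond the end of the printed Insig1 stretch. Abca1 had no CCAAT box and 2 GC boxes, at 163 and 97 bases.

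The counted reads of a mouse summed to 10885154 at the least and 12710861 at the most. Normalized read counts are the counts scaled by edgeR's TMM factors to the mean library, and 15949 genes with enough reads, all 32 members among them, were tested by edgeR's quasi-likelihood method with Benjamini-Hochberg adjustment over all of them, and a gene is said to have risen or fallen when its adjusted p was under 0.05. The p-values weigh the difference between the diets against the spread between the mice. The counts behaved as if repeated reads from one start position had been removed, a step not given in the sources used here. Among genes with at least 1000 reads, the highest count was 105% of 2 reads per base of merged exons, the number of start positions on both strands. Levels and differences of abundant genes can be compressed for this reason. All 8 endothelial markers were abundant, with summed levels of 46648 to 50037 normalized reads on the control and 45102 to 50903 on the ketogenic diet, and 0 passed the test with edgeR, DESeq2 or limma, with 1 at an unadjusted p under 0.05. Pecam1, which encodes CD31, had 7127 ± 285 normalized reads (SD, n = 5) on the control and 6715 ± 357 on the ketogenic diet, and Kdr, a receptor for VEGF, had 8038 ± 194 and 8810 ± 559. The raw counts of Pecam1 ran only from 6770 to 7020 and those of Cdh5 from 7356 to 7571, and the 8 markers filled up to 32.4% to 90.5% of their start positions. At such filling a change can go unseen, so the missing calls say little about whether endothelial content was alike. Other cells were present too, and 0 of the 7 mural and 0 of the 7 fibroblast markers passed with edgeR, DESeq2 or limma or had an unadjusted p under 0.05. Mural markers summed to between 27031 and 30201 normalized reads over all mice, with Rgs5 at 7758 ± 315 and 7460 ± 320 and Myh11 at 9753 ± 515 and 9649 ± 557. The same limit holds for 4 of the 7 mural markers, which filled over 50% of their start positions, Rgs5 with 7457 to 7691 and Tagln with 2083 to 2177 raw reads in all mice. Fibroblast markers summed to between 6729 and 7968, with Dcn at 3069 ± 162 and 2959 ± 190 and Col1a1 at 226 ± 10.6 and 261 ± 52.5. Adipocyte genes were nearly absent, each of the 4 at 0 reads in at least 1 mouse and Adipoq at no more than 9 in any.

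The amount of message differed widely along the pathway. On the RPKM scale, recomputed here from counts and merged exon lengths so that genes can be compared, the most abundant member was Lbr, which encodes a lamin-binding protein of the nuclear membrane with sterol reductase activity, at an RPKM of 80.3 ± 2.60 (SD, n = 5) on the control diet. Nr1h2, the gene of LXR beta, followed at 54.4 ± 2.04, then Mylip at 49.9 ± 3.05, Pmvk at 45.0 ± 1.54 and Ebp at 44.5 ± 0.651 on the control diet. The levels of Pmvk and Ebp did not differ beyond their spread. At the other end stood Lss at 1.18 ± 0.228, Fdps at 1.139 ± 0.211, Tm7sf2 at 0.874 ± 0.168 and Idi1 at 0.538 ± 0.133. Within the SREBP2 group Insig2 stood at an RPKM of 36.9 ± 0.686, above Insig1 at 10.9 ± 0.972, the SREBP2 gene Srebf2 at 8.04 ± 1.45 and Scap at 3.85 ± 0.138. Both sterol reductases that can act on the same double bond were thus measured at very different levels, Lbr at the top and Tm7sf2 near the bottom. Levels of Fdps, Idi1 and Tm7sf2 are uncertain, since their exons share 1124, 323 and 532 bases with another annotated gene and such reads may have been left out or split. The same limit holds for Lbr, Lss and Scap, whose exons share 440, 381 and 985 bases with a gene on the opposite strand. The order at the top is uncertain too, as Lbr, Nr1h2, Pmvk, Mylip and Ebp filled up to 49.2%, 34.6%, 31.4%, 30.9% and 29.1% of their start positions.

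**Figure D1:**
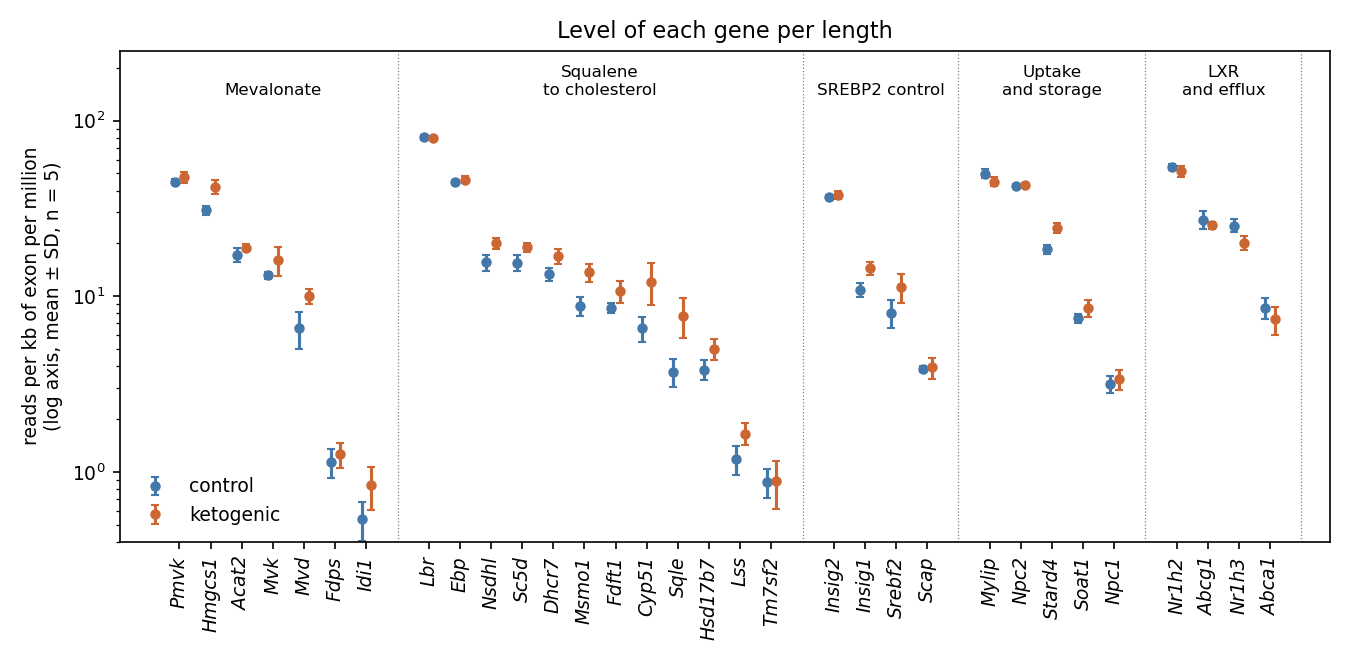
Level of each member as recomputed RPKM, reads scaled to merged exon length and library size, on a log axis, as mean and SD of 5 mice per diet (blue control, orange ketogenic), ordered within each step. Lbr stood highest at 80.3 and Idi1 lowest at 0.538 on the control diet, while the diets lay close together for most genes.

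On the ketogenic diet, 6 of the 32 genes rose and 0 fell by edgeR's test. DESeq2 called 14 higher and 1 lower, limma 7 higher and 0 lower, and 2 had a negative difference at an unadjusted p under 0.05. For comparison, edgeR called 1.34% of all tested genes in either direction, 0.809% as higher and 0.527% as lower. Over all genes DESeq2 called 795 of the 32378 it fitted, 446 higher and 349 lower. It was fitted to every gene with a read, also those too low for edgeR's filter, so its share is not comparable with edgeR's. Limma, run on RPKM with 1 added, called 242 of 15949, 155 higher and 87 lower. As the members were chosen with this contrast known, nothing is read from how their counts differ from these. The log2 fold change was above 0 for 26 of the 32, and for 48.6% of the tested genes. The 6 genes that rose were Hmgcs1, Sqle, Cyp51, Msmo1, Insig1 and Stard4. In 8 members all 5 ketogenic mice lay above all 5 control mice, where 2.40% of tested genes did so, and in 0 members all lay below, where 1.94% did. At an unadjusted p under 0.05 stood 19 members, beside 17.8% of the tested genes. Insig1 was the last inside the threshold, with an adjusted p of 0.0442, and Nsdhl (0.0544) and Nr1h3 (0.0568) were the nearest outside it. The median log2 fold change was 0.33 over the 19 synthesis genes, 0.21 over the SREBP2 group, 0.08 over uptake and storage and −0.18 over LXR and efflux, beside −0.0057 over all tested genes.

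**Figure D2:**
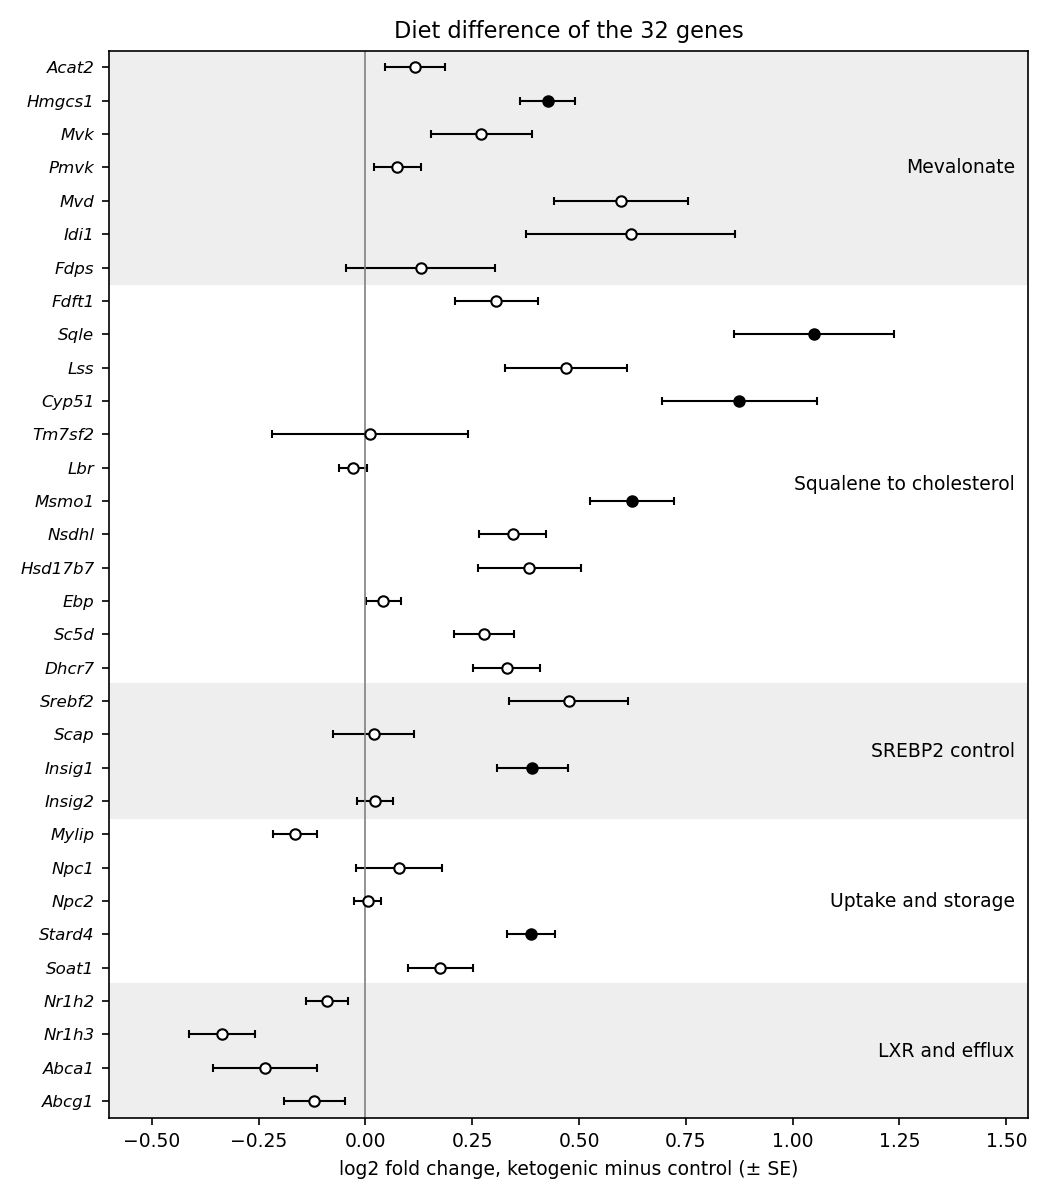
Log2 fold change of each member, ketogenic minus control, with its standard error from edgeR's quasi-likelihood fit on 5 mice per diet. Filled points passed an adjusted p of 0.05. Of the 19 synthesis genes 18 lie right of 0, and all 4 LXR and efflux genes lie left of it.

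The mevalonate pathway had 7 positive differences, and 1 of them, Hmgcs1, passed the test. Hmgcs1 (chr13:119690379-119708260, plus strand, with GENCODE M21 coordinates on GRCm38 here and below) encodes the cytosolic synthase that joins acetyl-CoA and acetoacetyl-CoA to HMG-CoA. In order of replicate number the control mice had 1716, 1710, 1483, 1712 and 1686 normalized reads of it and the ketogenic mice 2561, 2074, 2125, 2084 and 2323. The lowest ketogenic mouse was thus well above the highest control mouse. Hmgcs1 rose by 34.4%, a log2 fold change of 0.43 (SE 0.0645, adjusted p = 0.00957). Its exons share 557 bases with an antisense gene, whose reads these libraries cannot tell apart because the kit does not record the strand.

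Mvd, the decarboxylase at the end of the mevalonate steps, had 185, 142, 143, 90.5 and 155 normalized reads in the control and 249.0, 205, 198, 202 and 229 in the ketogenic mice. Its diets did not overlap either, but the difference of 0.60 on the log2 scale (SE 0.157) missed edgeR's threshold (adjusted p = 0.0805). Control mouse 4 was lowest, and the threshold was missed whichever mouse was left out (adjusted p = 0.070 to 0.148). Idi1, which isomerizes isopentenyl diphosphate, was counted only 13 to 51 times per mouse, and its log2 difference was 0.62 (SE 0.245, adjusted p = 0.211). For Mvk, the mevalonate kinase, ketogenic mice 1, 3 and 5 had 578, 591 and 523 normalized reads, while mice 2 and 4 had 422 and 376, inside or below the control range of 389 to 438. The log2 difference of Mvk was 0.27 (SE 0.118, adjusted p = 0.255). The remaining members were Acat2, the acetyl-CoA acetyltransferase that opens the route (log2 difference 0.12, SE 0.0702), the kinase gene Pmvk (0.07, SE 0.0549) and the farnesyl diphosphate synthase gene Fdps (0.13, SE 0.174), and the mice of both diets overlapped for each.

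Between squalene and cholesterol, 3 of 12 genes rose, 11 had a positive difference, and the median log2 fold change was 0.34. Sqle (chr15:59315077-59331192, plus strand) encodes squalene epoxidase, which adds oxygen to squalene and limits the flux through this part of the pathway. The control mice had 289, 270, 172, 234 and 243 normalized reads of Sqle and the ketogenic mice 656, 490, 484, 307 and 563. Ketogenic mouse 4 came close to the control mice, and mouse 1 stood highest. This was the largest rise of the 32 genes, 2.07-fold, with a log2 fold change of 1.05 (SE 0.187, adjusted p = 0.0221). The call was lost when control mouse 2 or ketogenic mouse 5 was left out, with adjusted p-values of 0.0516 and 0.0530.

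Cyp51 (chr5:4081145-4104746, minus strand) encodes the demethylase that acts on lanosterol, the earliest sterol of the route. It had 382, 331, 251, 385 and 347 normalized reads in the control and 822, 516, 635, 403 and 733 in the ketogenic mice. As for Sqle, ketogenic mouse 4 was lowest and lay just above the control mice. Cyp51 rose 1.83-fold (log2 fold change 0.88, SE 0.181, adjusted p = 0.0405), and leaving out 1 mouse at a time ended this call in 8 of 10 cases. Its exons share 166 bases with Akap9 on the opposite strand.

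Msmo1 (chr8:64718139-64733792, minus strand) encodes the methylsterol monooxygenase that takes over from Cyp51 in stripping methyl groups. The control mice had 759, 648, 539, 620 and 612 normalized reads and the ketogenic mice 1107, 930, 979, 814 and 1067. Every ketogenic mouse exceeded every control mouse. Msmo1 rose by 54.1% (log2 fold change 0.62, SE 0.0991, adjusted p = 0.0118), and this call stood without any of the 10 mice.

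**Figure D3:**
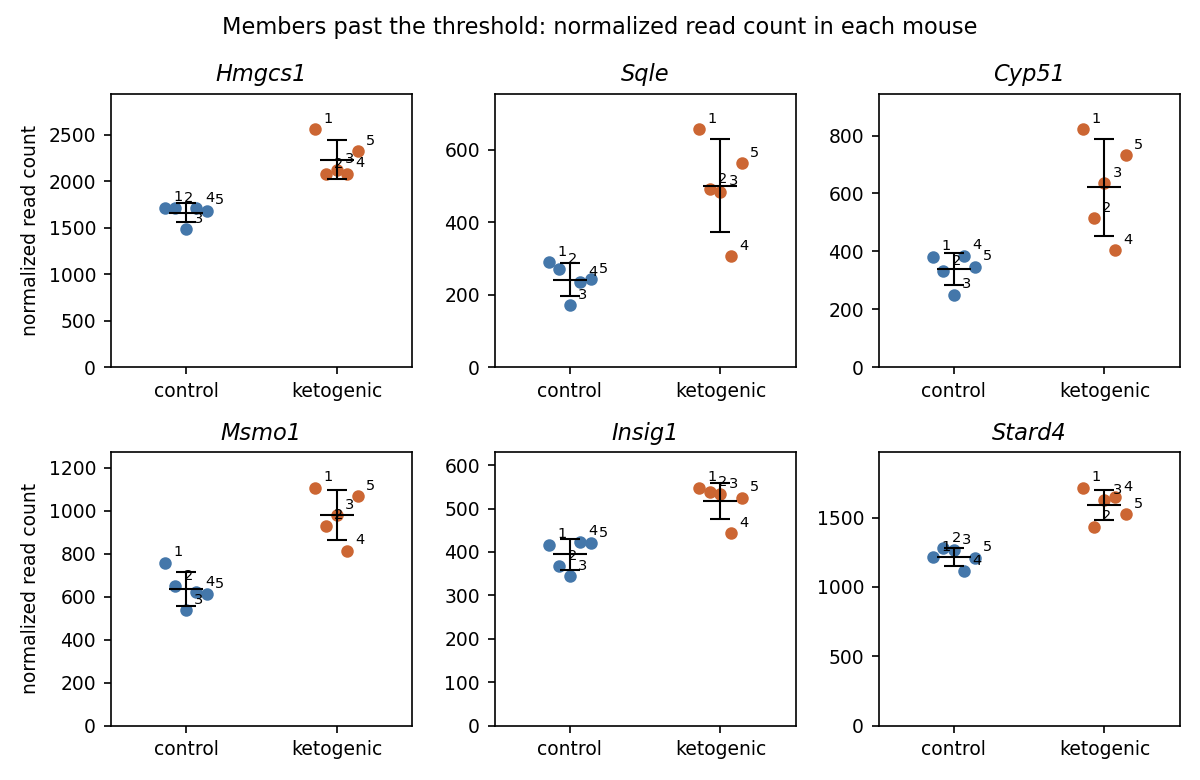
Normalized read counts of the 6 genes that rose on the ketogenic diet, in each mouse (points labelled with the replicate number), with mean and SD of 5 mice. The diets do not overlap for any of the 6, and ketogenic mouse 4 lies lowest of its diet for Sqle, Cyp51, Msmo1 and Insig1.

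Nsdhl and Dhcr7 came close to the threshold. For Nsdhl, whose dehydrogenase works beside Msmo1, the control mice had 450, 510, 598, 522 and 528 normalized reads and the ketogenic mice 722, 598, 664, 648 and 681. Only control mouse 3 reached the ketogenic mice. The log2 difference was 0.34 (SE 0.0779, adjusted p = 0.0544). Dhcr7, the reductase of the last step of one branch of the route, had 990, 820, 848, 893 and 1002 normalized reads in the control and 1283, 1014, 1088, 1088 and 1248 in the ketogenic mice. The diets did not overlap, with a log2 difference of 0.33 (SE 0.0793, adjusted p = 0.0647).

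Sc5d, a sterol desaturase, differed by 0.28 on the log2 scale (SE 0.0709, adjusted p = 0.0753), with 4 of 5 ketogenic mice above the control mice. The reductase gene Hsd17b7 differed by 0.38 (SE 0.120, adjusted p = 0.131), also with 4 of 5. Lss, which closes squalene epoxide into the ring system of lanosterol, differed by 0.47 (SE 0.143, adjusted p = 0.122), and Fdft1, which makes squalene, by 0.31 (SE 0.0970, adjusted p = 0.136), each with 3 of 5 ketogenic mice above the control mice. Exons on the opposite strand overlap 381 bases of Lss and 774 of Fdft1. These genes had the direction of Sqle without passing the test. The other 3 members lay near 0. The isomerase gene Ebp differed by 0.04 (SE 0.0411), Tm7sf2 by 0.01 (SE 0.229) and Lbr by −0.03 (SE 0.0319). Ebp and Lbr were among the most abundant members, and their standard errors were among the smallest of the 32. In Lbr the reads filled up to 49.2% of the possible read start positions, which can compress differences.

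In the SREBP2 group 1 of 4 genes rose. It was Insig1 (chr5:28071363-28078662, plus strand), which encodes a protein that retains SCAP and is itself a target of SREBP2. The control mice had 417, 368, 344, 424 and 420 normalized reads of Insig1 and the ketogenic mice 548, 538, 533, 443 and 525. Ketogenic mouse 4 stood apart, close to the control mice. Insig1 rose by 31.1% (log2 fold change 0.39, SE 0.0832, adjusted p = 0.0442), a call lost in 9 of 10 cases when 1 mouse was left out. Insig2, the paralog that SREBP2 is not known to drive, had 1502 ± 27.7 normalized reads on the control and 1525 ± 80.3 on the ketogenic diet, a log2 difference of 0.02 (SE 0.0416). Whether Insig1 and Insig2 differed in their change was not tested.

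Srebf2, the gene of SREBP2, had 688, 856, 521, 673 and 644 normalized reads in the control and 1227, 884, 800, 809 and 984 in the ketogenic mice. Control mouse 2 overlapped the ketogenic mice. The log2 difference was 0.48 (SE 0.139, adjusted p = 0.110). Scap had 336 ± 11.8 normalized reads on the control and 340 ± 46.2 on the ketogenic diet, with a log2 difference of 0.02 (SE 0.0951), and shares 985 exon bases with a gene on the opposite strand.

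Among uptake, transport and storage genes 1 of 5 rose. Stard4 encodes a soluble carrier that moves cholesterol between membranes. The control mice had 1215, 1278, 1264, 1112 and 1211 normalized reads of Stard4 and the ketogenic mice 1716, 1435, 1625, 1650 and 1528. All ketogenic mice lay above all control mice, and mouse 4 was not low here. Stard4 rose by 30.8% (log2 fold change 0.39, SE 0.0555, adjusted p = 0.00717), the smallest adjusted p of the 32, and the call stood without any of the 10 mice. With the cardiomyocyte marker score as a covariate the call was lost (adjusted p = 0.0669).

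The others of this group did not pass. Mylip encodes a ubiquitin ligase that marks lipoprotein receptors for breakdown and is a target of LXR. It had 1890 ± 113 normalized reads on the control and 1686 ± 93.3 on the ketogenic diet, with 4 of 5 ketogenic mice below all control mice, and a log2 difference of −0.16 (SE 0.0509, adjusted p = 0.128). Soat1, which esterifies cholesterol for storage, had 858 ± 48.7 and 968 ± 106, a log2 difference of 0.18 (SE 0.0758, adjusted p = 0.251). The lysosomal exporters showed little, with log2 differences of 0.08 (SE 0.1001) for Npc1 and 0.0054 (SE 0.0322) for Npc2.

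LXR and efflux genes had 4 of 4 negative differences, and 0 passed edgeR's test. DESeq2 called 1, Nr1h3 (adjusted p = 0.00481), limma called 0, and 1 was at an unadjusted p under 0.05. Nr1h3, the gene of LXR alpha, had 778, 688, 826, 673 and 757 normalized reads in the control and 556, 557, 679, 597 and 560 in the ketogenic mice. Ketogenic mouse 3 lay among the control mice and the other 4 below them. The log2 difference was −0.34 (SE 0.0770, adjusted p = 0.0568), and without ketogenic mouse 3 it was −0.39 with an adjusted p of 0.0404. When only the 14260 genes counted 10 times or more in each of the mice were tested, edgeR called Nr1h3 lower (−0.34, adjusted p = 0.0487). Nr1h2, the more abundant LXR gene, had 2138 ± 82.5 normalized reads on the control and 2009 ± 139 on the ketogenic diet, a log2 difference of −0.09 (SE 0.0495, adjusted p = 0.368).

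Abca1, the transporter that loads cholesterol on lipid-poor apolipoprotein, had 981, 1074, 1277, 937 and 960 normalized reads in the control and 968, 845, 700, 1121 and 808 in the ketogenic mice. Ketogenic mice 1 and 4 lay within the control range. The log2 difference was −0.24 (SE 0.122, adjusted p = 0.342). Abcg1, which exports cholesterol to high density lipoprotein, had 2330 ± 280 and 2144 ± 105 normalized reads, a log2 difference of −0.12 (SE 0.0721, adjusted p = 0.414), with control mouse 3 highest at 2759.

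**Figure D4:**
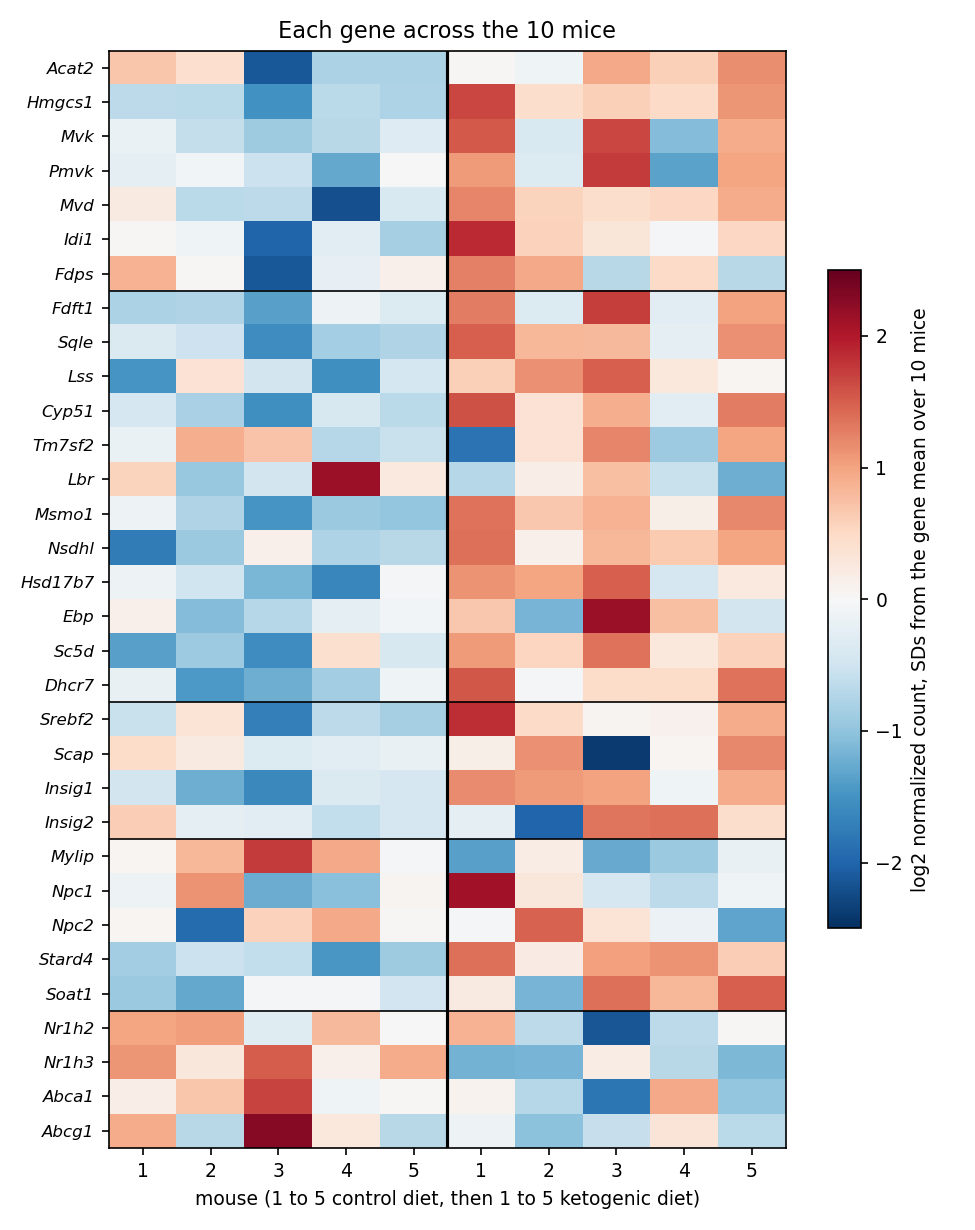
Log2 normalized count of each member in each mouse, as SDs from that gene's mean over the 10 mice (red above, blue below). Columns are control mice 1 to 5, then ketogenic mice 1 to 5, and horizontal lines divide the 5 steps. Control mouse 3 is blue for most synthesis genes and red for Abca1 and Abcg1, and ketogenic mice 1 and 3 are the reddest for synthesis.

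Mice of the same diet differed among themselves. Control mouse 3 had the lowest value of the 10 mice for 9 of the 19 synthesis genes, and ketogenic mice 1 and 3 had the highest for 9 and 8. Within the ketogenic diet, mouse 4 was lowest for 8 of the 19 and mouse 2 for 6. A score per mouse, the mean over the genes of the SDs from each gene's mean over the 10 mice, put the synthesis genes of the control mice at −0.280, −0.479, −1.07, −0.612 and −0.409 in order of replicate number. The ketogenic mice scored 0.959, 0.282, 1.002, −0.0313 and 0.637. The lowest ketogenic score exceeded the highest control score. The members were selected on diet differences in these same mice, so this separation is not independent evidence.

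The LXR and efflux score was 0.794, 0.334, 1.30, 0.272 and 0.0666 in the control and −0.0876, −0.884, −1.08, −0.0238 and −0.682 in the ketogenic mice. The mouse with the lowest synthesis score, control mouse 3, had the highest efflux score, and the one with the highest synthesis score, ketogenic mouse 3, had the lowest. Ketogenic mouse 4 had both scores nearest to those of the control mice. The mice fall into 2 diets of 5, so no correlation between the scores was computed. Opposite scores in the 2 diets are not independent evidence either, given how the members were selected.

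**Figure D5:**
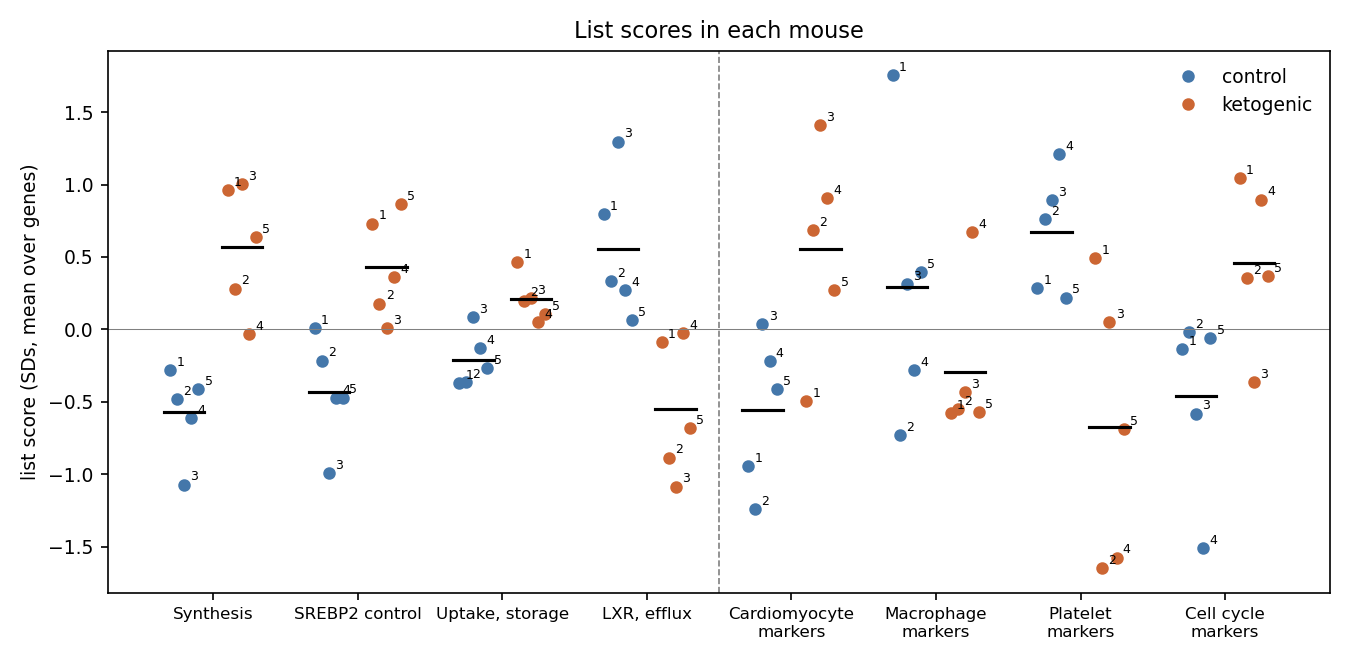
List scores in each mouse, in SDs averaged over the genes of a list, for 4 groups of members (left of the dashed line) and 4 marker lists (right). Points are mice with their replicate numbers, and black bars are means of 5 mice. Synthesis and efflux scores separate the diets in opposite directions, and marker scores shift with them but overlap. The members were selected on diet differences in these same mice.

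Genes around these steps were tested in the same fit, where 1.34% of all tested genes passed in either direction. Their lists too were chosen with earlier results known, so nothing is read from how many passed. Among 8 further genes of SREBP processing and sterol-driven degradation, 0 passed with edgeR, DESeq2 or limma and 0 had an unadjusted p under 0.05, and Mbtps1, which encodes the protease that makes the initial cut in SREBP, had 3368 ± 85.7 and 3442 ± 113 normalized reads. Erlin2 had 2029 ± 85.0 and 2138 ± 100.1, and the ubiquitin ligase gene Rnf139 484 ± 53.8 and 518 ± 41.4. Of 6 further genes of isoprenoid, sterol and oxysterol metabolism, 0 passed with edgeR or limma and 1 with DESeq2. At an unadjusted p under 0.05, 1 had a positive and 1 a negative difference. The geranylgeranyl diphosphate synthase gene Ggps1 had 1108 ± 69.7 and 1132 ± 54.5 normalized reads, Ch25h 449 ± 26.1 and 429 ± 91.3, and Cyp39a1 913 ± 28.8 and 1122 ± 179.

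Gramd1b, whose protein carries cholesterol from the plasma membrane to the endoplasmic reticulum, was the 1 of 16 further uptake and transport genes that passed, and it fell. The control mice had 222, 194, 255, 198 and 177 normalized reads and the ketogenic mice 89.8, 117, 133, 172 and 113, with a log2 fold change of −0.74 (SE 0.163, adjusted p = 0.0491). DESeq2 called Gramd1b lower and 1 of the 16 higher, limma called 0, and 2 had a positive and 4 a negative difference at an unadjusted p under 0.05. Lipa, the lysosomal lipase for cholesteryl esters, had 3708 ± 111 and 3765 ± 136 normalized reads, Lrpap1, a receptor chaperone, 4565 ± 207 and 4339 ± 118, and Stard3 1582 ± 63.0 and 1662 ± 70.2. Reads of Lrpap1 filled up to 56.0% of its start positions, which can hide a change. Vldlr, a lipoprotein receptor named here after its values were seen, had 8.0 to 47.6 normalized reads on the control and 55.3 to 108 on the ketogenic diet, without overlap, and missed the threshold (log2 difference 1.36, adjusted p = 0.0743).

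Of 10 further genes of LXR function, 1 passed with edgeR, DESeq2 and limma alike, and 1 had an unadjusted p under 0.05. Lpcat3, an LXR target that remodels phospholipids, had 1236, 1227, 1285, 1214 and 1253 normalized reads in the control and 1401, 1459, 1487, 1502 and 1486 in the ketogenic mice. It rose, with a log2 fold change of 0.24 (SE 0.0357, adjusted p = 0.00885), while Abca1 and Abcg1 had negative differences. Rxra, the partner of LXR, had 973 and 980 normalized reads on average, and Smpdl3a, another LXR target, 2482 ± 122 and 2435 ± 75.5. Reads of Smpdl3a filled up to 63.0% of its start positions, which can hide a change.

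SREBP1, the sister factor, drives fatty acid synthesis and desaturation. Of 13 genes of this arm, Insig1 among them, 2 rose and 1 fell, with a median log2 fold change of 0.14. DESeq2 called 3 higher and 2 lower, and limma 2 higher and 1 lower. Fads1, a fatty acid desaturase, had 851, 720, 679, 700 and 687 normalized reads in the control and 1076, 887, 1066, 884 and 1038 in the ketogenic mice, and rose (log2 fold change 0.45, SE 0.0812, adjusted p = 0.0242). Scd1, the stearoyl-CoA desaturase, went the other way, from 1190, 1089, 1157, 1075 and 946 to 672, 638, 724, 556 and 677, a log2 fold change of −0.74 (SE 0.0787, adjusted p = 0.00130). Its paralog Scd2 had 1691 ± 192 and 1795 ± 146. The abundant genes Acly, which supplies acetyl-CoA in the cytosol, and Elovl5 had log2 differences of 0.0053 (SE 0.0300) and −0.06 (SE 0.0351). Their reads filled up to 49.6% and 66.0% of their start positions, and at such filling a change can go unseen.

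Markers of other cells and of the cell cycle shifted with the diets as well. In bulk RNA fewer cells of a type and less RNA per cell cannot be told apart. Of 12 cardiomyocyte markers, 11 were higher on the ketogenic diet. By edgeR 0 passed, by DESeq2 6 and by limma 1, and 9 had an unadjusted p under 0.05. Their summed levels were 9227 to 10938 normalized reads on the control and 10556 to 14424 on the ketogenic diet, with Myh6 at 514 ± 182 and 754 ± 196 and Atp2a2 at 1905 ± 93.5 and 2083 ± 121. Cell cycle genes mark division in any cell type, endothelial cells included. The paper reported more Ki-67-positive endothelial cells in hearts after the same time on this diet. Which cells carried these reads was not tested here. Of 8 cell cycle genes 7 were higher. By edgeR and limma 0 passed, by DESeq2 2, and 6 had an unadjusted p under 0.05, with summed levels of 1663 to 2451 and 2158 to 3272, Mki67 at 184 ± 61.2 and 349 ± 120.1 and Top2a at 512 ± 140 and 710 ± 180.

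Macrophage markers went the other way, 7 of the 8 tested being lower on the ketogenic diet. By edgeR, DESeq2 and limma 0 passed and 4 had an unadjusted p under 0.05, with summed levels of 2286 to 8465 on the control and 2029 to 3813 on the ketogenic diet. Ptprc, which other leukocytes such as lymphocytes also express, had 865 ± 336 and 622 ± 160 normalized reads and Lyz2 1327 ± 368 and 978 ± 225. Control mouse 1 carried the highest macrophage score, 1.75. Platelet markers were lower in 4 of 4, all 4 at an unadjusted p under 0.05, with 0 passing by edgeR or limma, 2 by DESeq2, and sums of 4693 to 7602 against 2178 to 5595, Pf4 at 957 ± 96.6 and 693 ± 161 and Itga2b at 2441 ± 686 and 1286 ± 663. Of 6 lymphocyte markers 1, the B cell gene Cd79a, named here after its values were seen, fell (log2 fold change −0.46, adjusted p = 0.0221), DESeq2 called 2 lower and limma 1, and the list had summed levels of 1797 to 2791 and 1644 to 1888, Cd3e at 83.1 ± 19.3 and 89.4 ± 22.0 and Cd79b at 842 ± 153 and 682 ± 44.5.

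The diet difference of the members was recomputed with marker scores as covariates of the edgeR fit. These fits called fewer genes over the whole set as well. Of all 15949 tested genes, 213 passed without a covariate and 77 with the cell cycle score. The count was 29 with the cardiomyocyte and 141 with the macrophage score. An unadjusted p under 0.05 was reached by 2644 of the 15949 with the cell cycle score. With the cell cycle score, the median over the synthesis genes was 0.34 and that over LXR and efflux −0.23, and 0 of the 32 genes passed edgeR's test, Hmgcs1 and Msmo1 standing nearest at an adjusted p of 0.0784, while 15 had an unadjusted p under 0.05. With the cardiomyocyte score the synthesis median was 0.41 and 4 members passed, Hmgcs1, Sqle, Msmo1 and Srebf2, the last with a log2 difference of 0.89 (adjusted p = 0.00296). Stard4, Cyp51 and Insig1 lost the call with this score, at adjusted p-values of 0.0669, 0.0676 and 0.180. With the macrophage score, added after the data had been seen, these medians were 0.31 and −0.15, and Hmgcs1, Msmo1 and Stard4 passed, while Sqle, Cyp51 and Insig1 did not (adjusted p = 0.0604, 0.0912 and 0.0876). The scores themselves differed between the diets. Their control and ketogenic means were −0.556 and 0.556 for cardiomyocyte, −0.46 and 0.46 for cell cycle and 0.291 and −0.291 for macrophage markers. These fits therefore cannot tell the part of other cells or of cell division apart from that of the diet, and it was not tested.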

How the data were processed

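CD31+ cells from hearts of 5 control-diet and 5 ketogenic-diet mice were sequenced in single-read mode from SMART-Seq libraries. According to the submitters' processing notes, bcl2fastq 2.17.1.14, STAR 2.3, HTSeq 0.6.0 and the mm10 build were used. The authors deposited unnormalized counts of reads per gene and RPKM values, which divide those counts by gene length and library total. The gene lengths behind the deposited RPKM, rounded to whole bases, were compared with GENCODE M21 for 11437 genes whose merged exon length differs from the exon length summed over transcripts. They equaled the summed length, to the base, in 2492 genes and the merged length in 79, so levels per length were recomputed from counts and merged exons. Counts appeared limited to about 2 reads per exon base, as if duplicate reads had been removed, which is not given in the sources used here and can compress counts and RPKM of abundant genes. Of the identifiers, 46488 were found in M21 without regard to version.

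Members and gene lists were chosen with earlier results of these data known. Some genes of these lists are not reported here and were left out of the counts. Groups and replicate numbers were read from the titles of the samples. In R 4.3.3, edgeR 4.0.16 was run with TMM, filterByExpr at its defaults, a quasi-likelihood F-test and Benjamini-Hochberg adjustment over all tested genes. The paper's methods used DESeq2, which served here as an alternative (DESeq2 1.42.0, Wald test), as did limma 3.58.1 on log2-transformed RPKM after adding 1 or 0.1. Each SE was obtained as the absolute log2 fold change over the root of the F statistic. Scores average z-scores of log2 CPM with a prior count of 2. The script was tested on simulated data with 200 changed genes. Promoters came from RefSeq on GRCm38.p6, and motif letters were searched with Python 3.11.15. Named are all members, of the other lists the genes that passed and otherwise the 3 with the highest RPKM, and of marker lists the gene with the most reads and the one listed at the top. Other alternatives were other scalings and filters, a replicate block, marker scores as covariates, counts corrected for read start positions and each mouse left out.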

Additional observations from a re-analysis of the deposited data

Results flagged for a closer look

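In 3 of 76 sets of 5 mice, covering each member and each group score in each diet, 1 mouse lay so far from the others that the gap to its neighbor exceeded 0.71 of the whole range, Dixon's critical value. Chance alone gives about 1 in 20, or 3.8 of 76. Hmgcs1 was at 1483 normalized reads in control mouse 3, below the next mouse at 1686, and this is the mouse with the lowest synthesis score of all. Idi1 was at 50.3 normalized reads in ketogenic mouse 1, above the next at 32.4, on 13 to 51 reads per mouse. Insig1 was at 443 normalized reads in ketogenic mouse 4, below the next at 525, the mouse that was also lowest of its diet for Sqle, Cyp51 and Msmo1. Without that mouse the log2 fold change was 0.44 for Insig1 and 1.18 for Sqle.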

How the results depend on the processing

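The count of members that passed was 5 to 7 under the other scalings and filters, limma and the correction for read start positions, but 15 with DESeq2 (14 higher, 1 lower), 0 with the cell cycle score and 3 with the macrophage score as covariate, and 3 to 7 when each mouse was left out. Over all genes it was 795 with DESeq2, 29 with the cardiomyocyte, 77 with the cell cycle and 141 with the macrophage score, 113 with the replicate block and 86 to 492 when each mouse was left out, the most without ketogenic mouse 2 and fewest without control mouse 2. With the replicate block 5 members passed, Dhcr7 among them (adjusted p = 0.0295) and Cyp51 (0.0704) and Insig1 (0.101) not. The filter of 10 counts in every mouse added Nr1h3 as lower (0.0487). Mice of the same number did not deviate together, with correlations of −0.134 to 0.0936 over genes and 0 of 5 control mice correlating best with their own number, so the numbers were not taken as pairs.

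With the cardiomyocyte score as covariate the median log2 fold change was 0.41 for mevalonate and 0.30 for the SREBP2 group, and the score differences 1.82 and 1.40. The uptake median was 0.0344 with the cell cycle and 0.0372 with the macrophage score, and 0.00968 to 0.143 when each mouse was left out. Without division by the SD, score differences were 0.31 for mevalonate, 0.38 from squalene on, 0.36 for synthesis, 0.22 for the SREBP2 group, 0.0947 for uptake and −0.20 for efflux, on the log2 scale.

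Members with differences near 0 changed sign. With the cell cycle score Fdps was at −0.0704, Lbr at 0.0239, Scap at −0.0865 and Npc1 at −0.0841. Tm7sf2 was at −0.00430 with upper quartile factors, −0.00586 with limma and 0.1 added, −0.0151 with the replicate block, −0.23 with the cardiomyocyte and −0.0767 with the macrophage score, and between −0.103 and 0.148 without 1 mouse. Scap lay between −0.0197 and 0.103 and Npc2 between −0.00788 and 0.0237 without 1 mouse. Npc2 was at −0.00951 with upper quartile factors and −0.0325 with the cardiomyocyte score, and Nr1h2 at 0.0379 with the latter. The causes were not tested. The 6 genes that rose kept their direction under every alternative run.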
